A study of Mus musculus with 22 samples.

Results

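The genes described here are 8 abundant digestive protease genes of the mouse pancreas, 6 trypsinogens (Prss1, Prss2, Prss3, Try4, Try5 and Try10) and 2 pancreatic carboxypeptidases (Cpa1 and Cpb1). They were selected by gene symbol from a raw count table, after their levels in these libraries were known, and account for 8 of its 21450 symbols and 12 of its 30146 probes. Whole pancreas was collected on the day of birth from C57Bl/6 mothers (dams) and from 1 male and 1 female pup of each litter. The TCDD dams had been given 20 ng/kg per day of the dioxin TCDD, a ligand of the aryl hydrocarbon receptor, by subcutaneous injection on 2 occasions a week, beginning ahead of mating and ending at birth, while control dams were given the corn oil vehicle on the same schedule. The pups were exposed only through their mothers, and neither animal age nor any pooling of animals is stated in the labels. RNA was counted with TempO-Seq, in which 2 short probes bind side by side on a target transcript, are joined and are read by sequencing. By label the 22 libraries were 4 TCDD dams, 4 TCDD female pups, 4 TCDD male pups, 4 control dams, 3 control female pups and 3 control male pups. Libraries are named below by label and by the number of the dam or litter.

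Trypsinogens are made by the acinar cells of the exocrine pancreas, stored in zymogen granules and secreted into the gut, where enteropeptidase cuts off a short activation peptide. The trypsin so formed activates the other pancreatic proenzymes, among them chymotrypsinogens, proelastases and procarboxypeptidases. Cpa1 encodes carboxypeptidase A1, which removes aromatic and aliphatic residues from the C-terminal end of peptides, and Cpb1 encodes carboxypeptidase B1, which removes basic ones. Mice carry a cluster of closely related trypsinogen genes next to the T cell receptor beta genes, and inhibitors such as Spink1 hold premature trypsin in check within the gland.

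Stage genes split the libraries in a way that the labels do not. The summed count of Afp, a plasma protein of the fetus, exceeded that of Pnlip, the pancreatic lipase of the mature gland, in 14 libraries, called newborn-type here, and lay below it in the other 8, called adult-type. The adult-type class held 6 libraries labelled TCDD (male pups 8, 10 and 11, female pup 6 and dams 8 and 11) and 2 labelled control (dams 5 and 7). The newborn-type class held 6 libraries labelled TCDD, of which 2 were labelled dam, and 8 labelled control, of which 2 were labelled dam. In all, 8 libraries went against their stage label. Total counts were 14068304 to 19148777 in adult-type libraries and 11223816 to 34911410 in newborn-type libraries. TCDD female pup 6 stood somewhat apart in its class, with the highest value of the 8 adult-type libraries for 4 of the 12 probes and the lowest for 5. The classes are defined from counts of these libraries, so differences between them are given as descriptions, without a test. The 9 measured acinar cell markers summed to 176036 to 201828 counts-per-million of the library total (CPM) in adult-type and 81475 to 112641 CPM in newborn-type libraries. Pnlip, which also sets the classes, is part of this sum. The summed count of Pnlip was 40765.2 to 48924.5 CPM in adult-type and 22.3 to 91.6 CPM in newborn-type libraries. Part of the gap between the marker sums is therefore tied to the class rule. By single markers, 2 had all adult-type libraries above on CPM, 1 had all newborn-type libraries above and 6 overlapped, and none was at 0 in all libraries. Of the 2, 1 is Pnlip, a gene of the class rule. Over 14503 probes with a mean of at least 1 CPM, 0.427% had adult-type libraries above and 74.4% newborn-type libraries above.

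The 6 trypsinogens are nearly the same in sequence, which bears on what a probe can tell apart. Each has a coding length of 741 bases, which encodes 246 residues, and any 2 of them can be aligned over it without a gap. Prss1 was 96.4% identical to Prss3, 93.4% to Try4, 92.3% to Try10, 92.2% to Try5 and 89.6% to Prss2, while Try4 and Try5 were 97.4% identical. The first 90 coding bases, which cover the signal peptide and the activation peptide, are printed because they show how little separates the genes, with capitals where a gene differs from Prss1 (GENCODE M21, all on chromosome 6, plus strand of the transcript).

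Prss1: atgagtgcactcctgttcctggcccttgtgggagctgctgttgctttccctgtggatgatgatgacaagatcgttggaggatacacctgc
Prss2: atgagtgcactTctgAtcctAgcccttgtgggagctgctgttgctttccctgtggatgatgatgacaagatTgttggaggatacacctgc
Prss3: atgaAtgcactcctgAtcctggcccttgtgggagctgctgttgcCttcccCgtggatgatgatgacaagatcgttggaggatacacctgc
Try4: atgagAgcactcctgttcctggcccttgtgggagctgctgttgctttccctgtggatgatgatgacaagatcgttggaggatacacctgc
Try5: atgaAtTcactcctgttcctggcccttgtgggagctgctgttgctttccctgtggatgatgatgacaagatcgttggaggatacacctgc
Try10: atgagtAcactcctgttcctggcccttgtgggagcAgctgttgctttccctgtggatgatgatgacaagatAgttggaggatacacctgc

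Try4 differed from Prss1 at 1 of these bases, Try5 at 2, Try10 at 3, and Prss2 and Prss3 at 4 each. A later stretch, coding bases 293 to 342, is printed as the place where Prss1 stood farthest from its nearest relative among the members.

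Prss1: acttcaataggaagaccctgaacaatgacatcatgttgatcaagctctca
Prss2: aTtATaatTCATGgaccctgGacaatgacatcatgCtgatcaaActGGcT
Prss3: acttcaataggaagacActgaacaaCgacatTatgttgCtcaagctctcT
Try4: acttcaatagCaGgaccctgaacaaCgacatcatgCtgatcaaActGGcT
Try5: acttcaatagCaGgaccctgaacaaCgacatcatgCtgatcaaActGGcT
Try10: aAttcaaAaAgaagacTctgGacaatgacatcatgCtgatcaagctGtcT

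There Prss3 differed from Prss1 at 5 bases, Try4, Try5 and Try10 at 8 each and Prss2 at 14. The bases that follow it, coding bases 343 to 404, are an unbroken run of 62 bases that Prss1, Prss3 and Try4 have in common, and a run of 38 bases at coding bases 151 to 188 is common to all 6 trypsinogens.

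Prss1, Prss3 and Try4: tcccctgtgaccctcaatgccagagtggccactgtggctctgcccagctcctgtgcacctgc
All 6 trypsinogens: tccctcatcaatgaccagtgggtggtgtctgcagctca

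Counted over the transcripts in windows of 50 bases, 66.1% of the windows of Prss3 had an exact copy in another trypsinogen of the locus, against 64.2% for Try4, 54.9% for Prss1, 45.5% for Try5, 25.4% for Try10 and 7.83% for Prss2. For Cpa1 and Cpb1, 55.1% identical to each other over their coding sequence, the share was 0%. The letters of the probes were not used here, so which window each probe binds is not known, and values of trypsinogen probes are uncertain as values of single genes. A probe's count can be compared between libraries, but the efficiency of a probe is unknown, so counts of different probes are not compared as levels of different genes.

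Together the 12 probes took 27.9 to 32.0% of all counts in adult-type libraries (median 30.03%) and 20.8 to 26.01% in newborn-type libraries (median 23.5%). Trypsinogen probes alone took 14.5 to 17.5% in adult-type and 11.9 to 14.8% in newborn-type libraries, ranges that overlap. Carboxypeptidase probes took 12.7 to 15.8% and 8.63 to 11.5% in adult-type and newborn-type libraries, with no overlap. Cpb1 probe 29216 had the highest mean CPM of all 30146 probes, Try4 probe 75906 was the third and Prss1 probe 71011 the sixth, and 7 of the 20 most abundant probes belonged to the 8 genes. Such shares move the scale on which everything else is read. Over 16760 probes the median log2 difference of adult-type over newborn-type libraries was -1.94 on CPM and -0.06 after TMM scaling, so a probe at 0 on CPM stands above 0 after TMM scaling. In whole tissue, fewer cells of a type and less RNA per cell cannot be told apart.

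The trypsinogen transcripts did not move as 1 group between the classes. On CPM, Try10, a trypsinogen in the middle of the cluster, and 1 of the probes for Prss1 were far lower in adult-type libraries, whereas 1 probe of Try4, 1 probe of Try5 and the probe of Prss2 were higher there. After TMM scaling the log2 differences were -1.19 for Try10 and -3.85 for Prss1 probe 32233. The ranges of the classes did not overlap on CPM for 6 of the 12 probes, with adult-type libraries above in 4 and newborn-type libraries above in 2. Over 14503 probes with a mean of at least 1 CPM, the shares were 0.427% with adult-type libraries above and 74.4% with newborn-type libraries above. These members were picked with the values known, so nothing is read from that count.

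Prss1 gave different pictures through its 2 probes. Prss1 probe 32233 had 119 CPM at the lowest, 189 CPM at the median and 282 CPM at the highest in adult-type libraries, against 7663, 10845 and 13545 CPM in newborn-type libraries. Its mean was 198 ± 64.3 CPM in adult-type (SD, n = 8) and 10599 ± 1851 CPM in newborn-type libraries (SD, n = 14), which is 53.5-fold higher in newborn-type. Every adult-type library lay far below every newborn-type one, yet still at 2274 counts or more. Prss1 probe 71011 had 32670, 38501 and 42003 CPM in adult-type libraries and 28171, 32277 and 34154 CPM in newborn-type libraries. These ranges overlap, and the mean ratio of adult-type over newborn-type was 1.19. The ratio of probe 32233 to probe 71011 within a library does not depend on depth or scaling. It was 0.00325 to 0.00674 in adult-type and 0.228 to 0.406 in newborn-type libraries, a 125-fold span between its lowest and highest library.

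Try4 also split by probe, in the other direction. Try4 probe 30887 had 20078, 27880 and 34643 CPM (lowest, median and highest) in adult-type libraries, against 4684, 6145 and 8356 CPM in newborn-type libraries. All adult-type libraries were above all newborn-type ones, and the mean was 4.51-fold higher in adult-type. Try4 probe 75906 had 36777, 43743 and 46673 CPM in adult-type and 29851, 34530 and 37527 CPM in newborn-type libraries, which just overlap. The ratio of probe 30887 to probe 75906 was 0.477 to 0.942 in adult-type and 0.125 to 0.232 in newborn-type libraries, again without overlap.

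Try5 differed less. Try5 probe 29086 had 17981, 20123 and 21745 CPM in adult-type and 11647, 13550 and 15015 CPM in newborn-type libraries, 1.48-fold higher in adult-type with no overlap. Try5 probe 80234 had 5846, 7615 and 9794 CPM in adult-type and 6632, 7105 and 9955 CPM in newborn-type libraries, with means of 7458 ± 1320 CPM (SD, n = 8) and 7572 ± 955 CPM (SD, n = 14) that differed by less than either SD. The ratio of the 2 probes ran from 1.84 to 3.42 in adult-type and from 1.51 to 2.08 in newborn-type libraries, which overlap.

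The remaining trypsinogens have 1 probe each. Try10 had 1556, 1932 and 2290 CPM (lowest, median and highest) in adult-type libraries, against 14182, 16732 and 19141 CPM in newborn-type libraries, and its mean was 8.55-fold higher in newborn-type. Prss2 had 1229, 1540 and 2649 CPM in adult-type and 539, 786 and 1044 CPM in newborn-type libraries, 2.10-fold higher in adult-type. The highest of these is TCDD female pup 6, and the other 7 adult-type libraries had 1503 ± 177 CPM of Prss2 (SD, n = 7). Neither gene overlapped between the classes. Prss3 had 15359, 18282 and 19963 CPM in adult-type and 12788, 14601 and 16643 CPM in newborn-type libraries, which overlap, with a mean ratio of 1.24.

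The carboxypeptidases leaned the same way as each other on CPM. Cpa1 had 34094, 36240 and 41025 CPM in adult-type libraries, against 16807, 19573 and 24825 CPM in newborn-type libraries. Its ranges did not overlap, and its mean was 1.85-fold higher in adult-type, at 36721 ± 2562 CPM (SD, n = 8) against 19851 ± 1835 CPM (SD, n = 14). Cpb1 probe 29216 had 66827, 88708 and 99084 CPM in adult-type and 53320, 62583 and 74413 CPM in newborn-type libraries. Cpb1 probe 78002 had 16939, 18862 and 20242 CPM in adult-type and 13104, 15432 and 17599 CPM in newborn-type libraries. Both Cpb1 probes overlapped between the classes, with mean ratios of 1.37 and 1.22. Unlike those of Prss1 and Try4, they kept a similar ratio to each other, 3.43 to 5.24 in adult-type and 3.25 to 4.58 in newborn-type libraries.

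**Figure D1:**
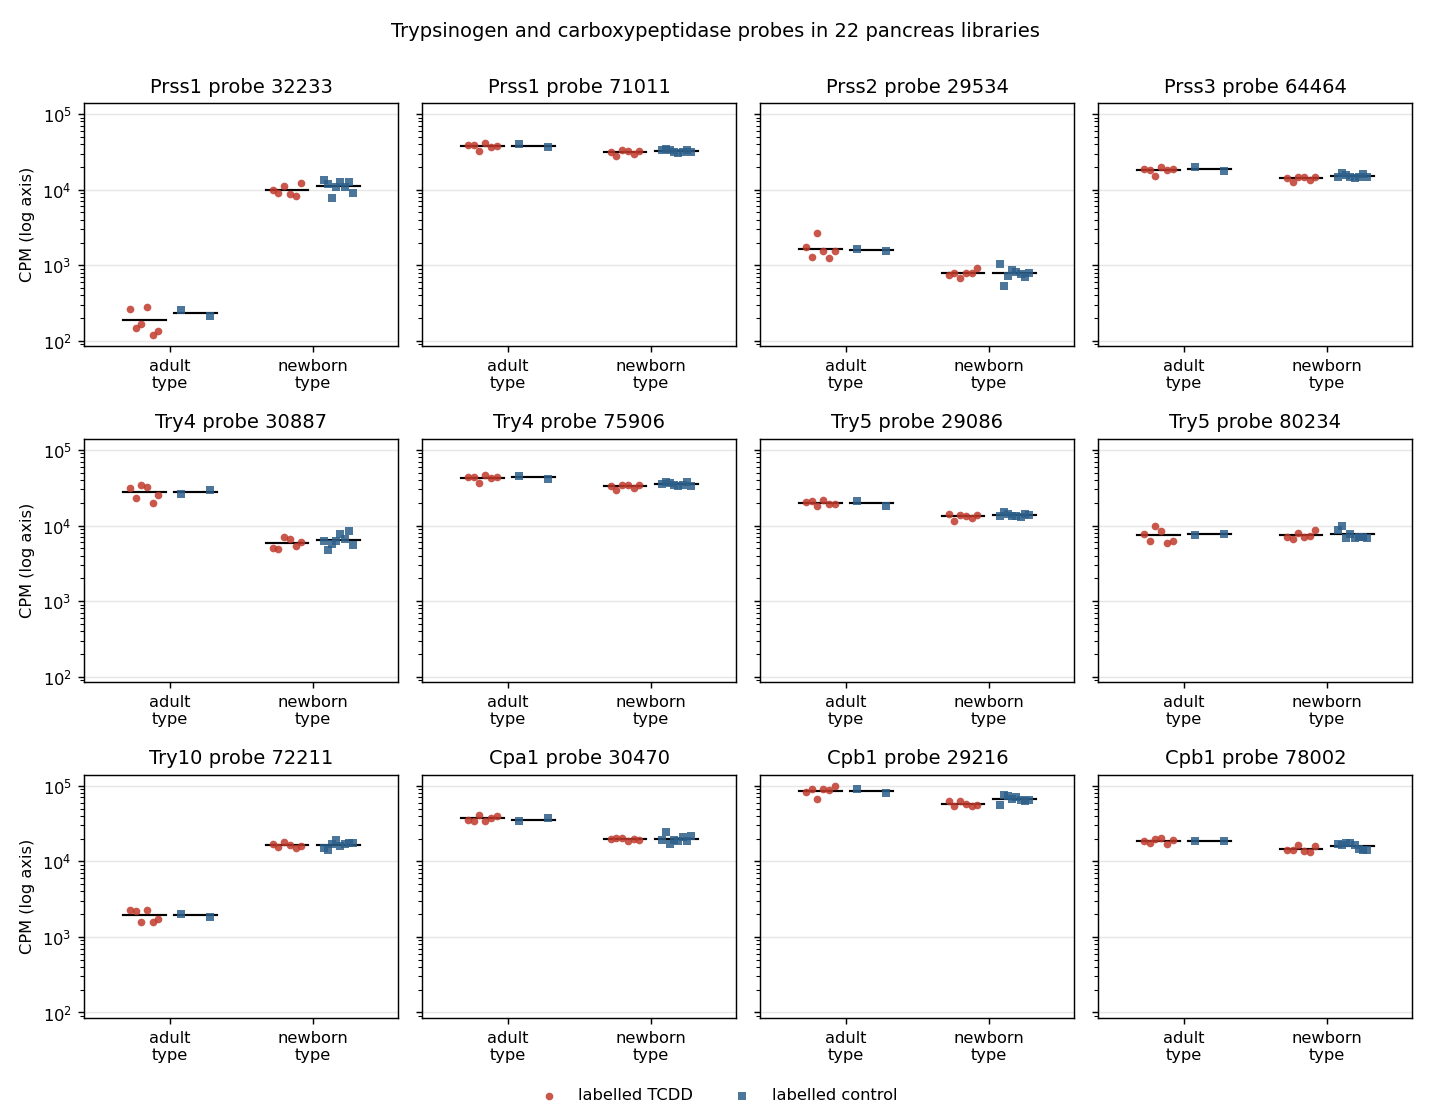
Counts-per-million (log axis) of each of the 12 probes in every library, with adult-type libraries left of newborn-type ones and, within a class, libraries labelled TCDD (circles) left of those labelled control (squares); black lines are group means. Prss1 probe 32233 and Try10 lie far lower in adult-type libraries, Try4 probe 30887 lies higher, and the TCDD and control points of a class overlap in all panels.

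**Figure D2:**
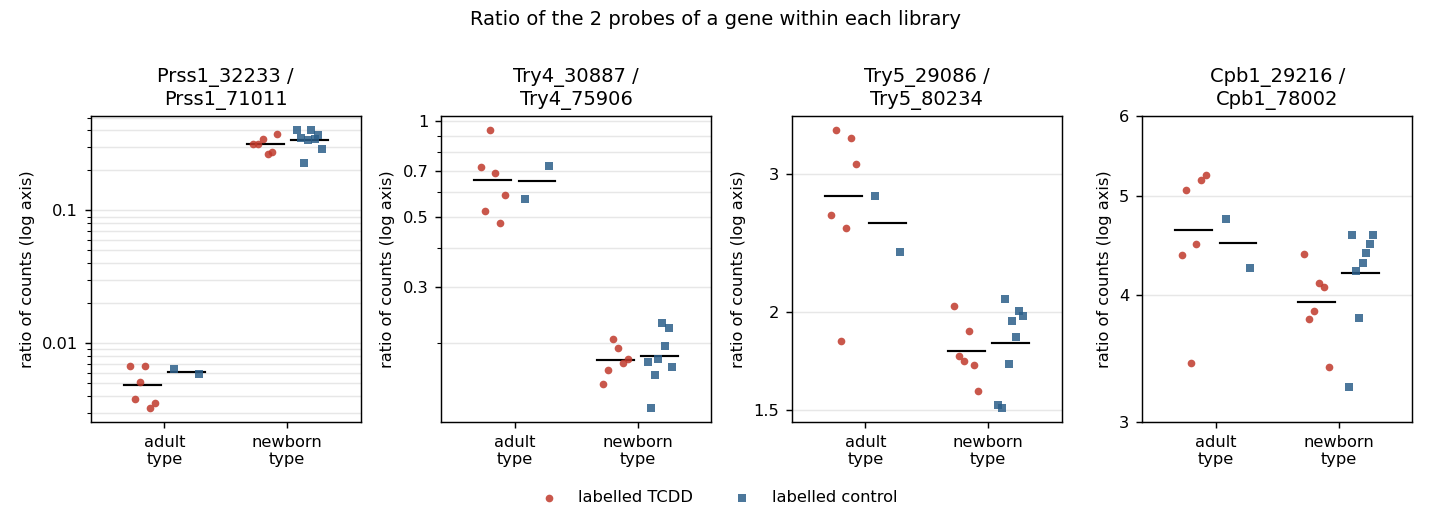
Ratio of the counts of the 2 probes of Prss1, Try4, Try5 and Cpb1 in each library (log axes, a separate scale in each panel), arranged by class and label as circles for TCDD and squares for control, with group means as lines. The Prss1 ratio is 0.00325 to 0.00674 in adult-type and 0.228 to 0.406 in newborn-type libraries, whereas the Cpb1 ratio overlaps between the classes.

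On the TMM scale, which sets most probes near 0, the same data read differently in level but not in order. Adult-type over newborn-type log2 differences were 4.05 ± 0.12 for Try4 probe 30887, 2.95 for Prss2, 2.77 for Cpa1, -1.19 for Try10 and -3.85 ± 0.19 for Prss1 probe 32233 (± SE, edgeR). The other 7 probes lay between 1.84 and 2.46. On this scale 10 of the 12 probes were at least 2-fold higher and 2 at least 2-fold lower in adult-type libraries, where 9.28% of 16760 probes were that much higher and 20.7% that much lower. On CPM 2 of the 12 were at least 2-fold higher and 2 at least 2-fold lower, where 0.585% of the same probes were higher and 88.3% lower. Try5 probe 80234 changed sign between the scales, at 1.84 on TMM and -0.02 on CPM. Taken relative to the median of all probes, the 12 probes had a median of 2.28 on TMM and 2.26 on CPM, so most member probes stood above the typical probe in adult-type libraries on both scales.

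**Figure D3:**
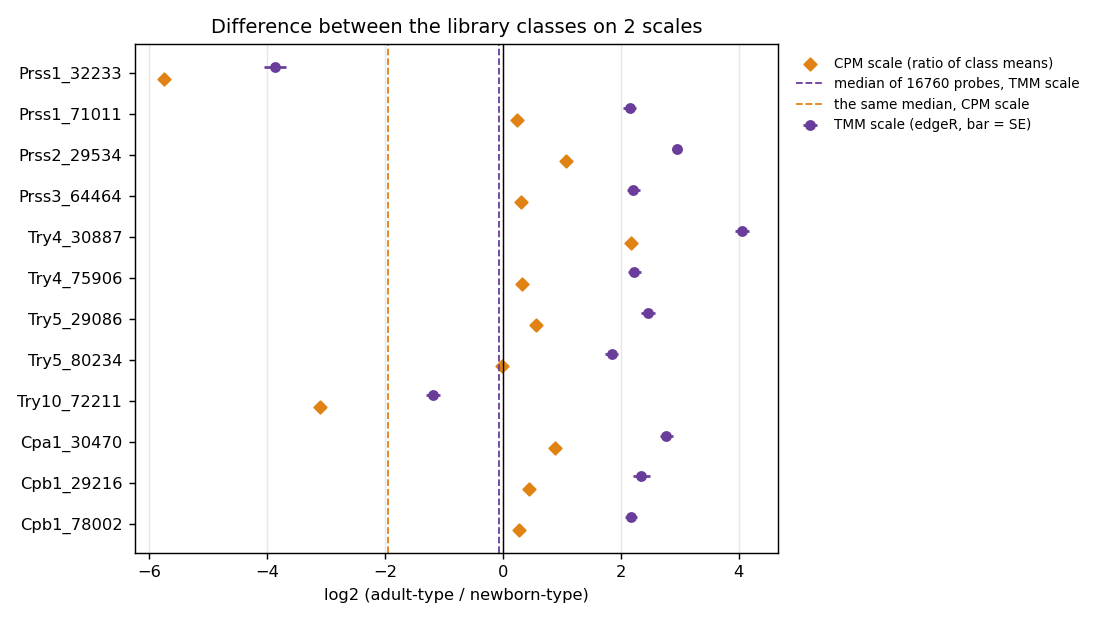
Log2 difference of adult-type over newborn-type libraries for each probe on the TMM scale (circles, bars are the SE from edgeR) and as the ratio of mean CPM (diamonds), with dashed lines at the median of 16760 probes on each scale. All 12 probes keep their order and shift together between the scales, and Prss1 probe 32233 and Try10 are the only ones of the 12 below 0 on both.

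Some probes of different genes tracked each other more closely than probes of 1 gene. Across all 22 libraries the ratio of Prss3 to Try4 probe 75906 stayed between 0.411 and 0.443. The ratio of Prss1 probe 71011 to Try4 probe 75906 stayed between 0.869 and 0.965, and that of Prss1 probe 71011 to Prss3 between 2.03 and 2.24. These were the 3 pairs with the smallest spread of the 66 pairs of member probes. Of the 3, only the ratio of Prss1 probe 71011 to Try4 probe 75906 did not overlap between the classes. It was 0.869 to 0.89996 in adult-type and 0.9004 to 0.965 in newborn-type libraries. All 3 genes hold the 62-base run printed above, but which other trypsinogens of the locus hold it too was not looked up. Whether these probes lie on a sequence that the genes share was not tested. Within the 14 newborn-type libraries, Pearson's r of log2 levels was 0.96 for Prss3 with Try4 probe 75906, and within the 8 adult-type libraries it was 0.98, each over points that share the total count of their library.

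Other genes of the trypsinogen locus were measured too, from a list of 9, of which 5 had probes. The RefSeq gene order on chromosome 6 is 1810009J06Rik, Gm2663, 2210010C04Rik, Try4, Try5, Try10, Prss3, Gm5771, Gm10334, Prss1 and Prss2. Only Gm5771 and Gm10334 thus lie among the members, and the others come before the first member. Gm5771, whose coding sequence was 97.6% identical to that of Prss1, had 445 ± 155 CPM in adult-type (SD, n = 8) and 34311 ± 4626 CPM in newborn-type libraries (SD, n = 14) by its more abundant probe, 77.0-fold higher in newborn-type. Its other probe had 0 to 14 counts in adult-type and 123 to 429 counts in newborn-type libraries. Gm2663 had 9.46 CPM in adult-type and 2016 CPM in newborn-type libraries, 213-fold higher in newborn-type. For 1810009J06Rik the means were 1.23 CPM in adult-type, from 7 to 45 counts per library, and 151 CPM in newborn-type libraries. These 4 probes of 3 genes did not overlap between the classes. All newborn-type libraries were above, as they were for 74.4% of probes with a mean of at least 1 CPM. Gm10334, 99.1% identical to Prss3, averaged 6561 CPM in adult-type and 7295 CPM in newborn-type libraries, and 2210010C04Rik averaged 15788 CPM in adult-type and 13510 CPM in newborn-type libraries, both with overlap. On the TMM scale the log2 difference stayed below 0 for Gm5771 (-4.37, the more abundant probe), Gm2663 (-5.83) and 1810009J06Rik (-5.05), while Gm10334 turned from -0.15 on CPM to 1.75 and 2210010C04Rik, at 0.22 on CPM, stood at 2.15.

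**Figure D4:**
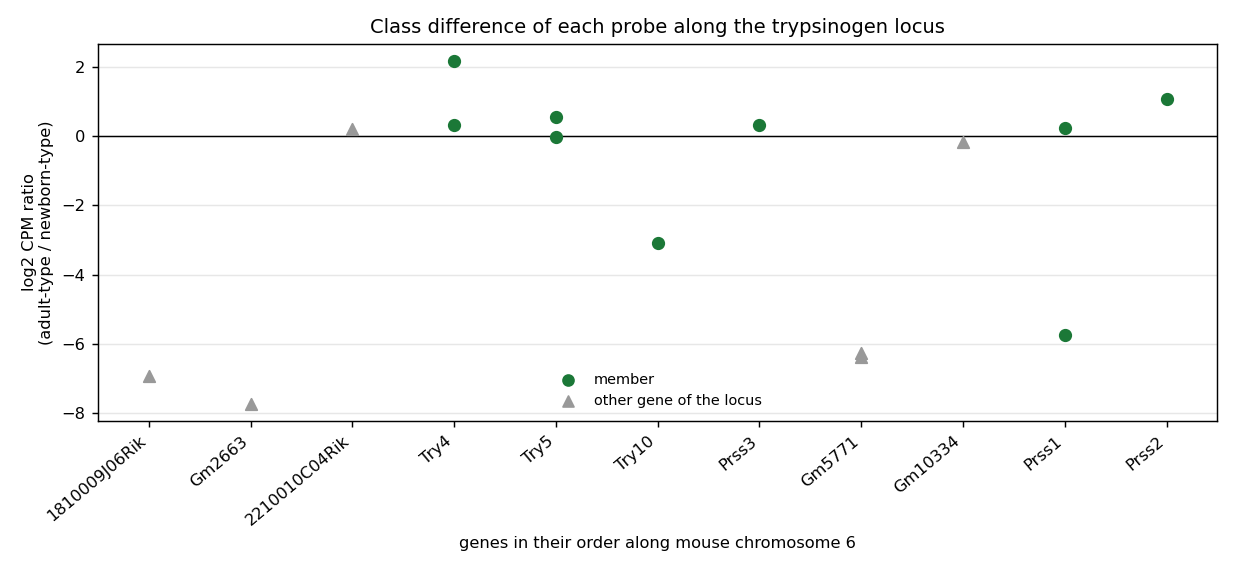
Log2 ratio of mean CPM, adult-type over newborn-type, for each probe of the trypsinogen locus, with genes placed in their order along mouse chromosome 6 and not to scale; circles are the 6 trypsinogens described here and triangles other genes of the locus. Low values stand at 1810009J06Rik, Gm2663, Try10, Gm5771 and 1 probe of Prss1, and the other probes lie near or above 0, where Gm10334, at -0.15, is above 0 only on the TMM scale.

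Promoter sequences from RefSeq (GRCm38.p6) were matched for 6 of the 8 genes, and Try5 and Try10 are named only. The 120 bases before the start of Prss1 (chr6:41458810-41458929, plus strand) and of Try4 (chr6:41302152-41302271, plus strand) are shown because 1 probe of each gene tracked the other across all libraries. They were identical at 102 of 120 bases, or 85%. Capitals mark, on either strand, the letters CACCTG of the E-box and the letters TTCCCA of the TC-box, both parts of the motif of PTF1, the acinar transcription factor complex, and the letters TATAAA of the TATA box.

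Prss1: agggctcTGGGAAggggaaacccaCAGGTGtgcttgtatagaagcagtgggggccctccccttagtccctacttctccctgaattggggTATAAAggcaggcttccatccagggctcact
Try4: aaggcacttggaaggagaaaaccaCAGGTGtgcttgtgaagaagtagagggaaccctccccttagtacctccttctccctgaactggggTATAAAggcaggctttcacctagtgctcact

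CACCTG stood 96 to 91 bases before the start in both genes and TATAAA 31 to 26 bases before it. TTCCCA was found only in Prss1 of this pair. Searched over the 250 bases before the start, CACCTG was present in Prss1, Prss2, Prss3, Try4 and Cpb1 and TATAAA in the same genes except Cpb1. Of 32851 promoters searched over the same length, 17.2% held CACCTG, 21.6% TTCCCA and 12.4% TATAAA. The 3 motifs do not overlap in the printed sequences, and a match is a description of letters only.

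The TCDD label was compared first within a class, where the split of the libraries cannot carry it. No member probe was called higher or lower in TCDD-labelled libraries of either class. Among newborn-type libraries (6 labelled TCDD, 8 labelled control), 0 of 12 probes passed edgeR's quasi-likelihood test with Benjamini-Hochberg adjustment over 17109 probes, against 0% of all probes called in either direction. Unadjusted, 6 of the 12 and 554 of all probes had p below 0.05, and DESeq2 and limma-voom called none. Cpb1 probe 29216 had 53320, 55885 and 62570 CPM (lowest, median and highest) in TCDD-labelled libraries, against 55935, 66165 and 74413 CPM in control-labelled libraries. The groups overlap, and its log2 fold change of -0.38 ± 0.13 (SE, edgeR) had an adjusted p of 0.99997 and an unadjusted p of 0.0064. Prss1 probe 32233 had 8171, 9487 and 12278 CPM in TCDD-labelled libraries, against 7663, 11478 and 13545 CPM in control-labelled libraries. Cpa1 had 18511, 19772 and 20525 CPM in TCDD-labelled libraries, against 16807, 19365 and 24825 CPM in control-labelled libraries. Try10 had 14863, 16333 and 17779 CPM in TCDD-labelled libraries, against 14182, 16925 and 19141 CPM in control-labelled libraries. All 12 estimates were below 0, from -0.38 to -0.12 with SEs of 0.08 to 0.14, but with library totals as the only scaling they ran from -0.22 to 0.02. The 12 probes are not independent of each other, and the median of all probes was -0.001. In both classes the fit took each library as a unit, although some libraries share a dam or litter number.

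Among adult-type libraries (6 labelled TCDD, 2 labelled control) 0 of 12 probes passed, again against 0% of all probes in either direction (edgeR, 13513 probes, of which 388 had an unadjusted p below 0.05, DESeq2 and limma-voom 0). Prss1 probe 32233 had 119, 158 and 282 CPM (lowest, median and highest) in TCDD-labelled libraries, against 211 and 257 CPM in the 2 control-labelled ones. Try4 probe 30887 had 20078, 28649 and 34643 CPM in TCDD-labelled libraries, against 25881 and 29880 CPM in the control-labelled ones. The control values lay inside the TCDD range in both. Log2 fold changes ran from -0.21 to 0.19, with SEs of 0.18 to 0.31 from edgeR. Their sign turned on single controls, since without control dam 7 they ran from -0.48 to 0.09 and without control dam 5 from 0.11 to 0.44. Both controls were labelled dam, whereas 4 of the 6 TCDD-labelled libraries were labelled pup. The chemical and stage labels therefore cannot be fully told apart in this class.

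Within-library ratios of the 2 probes of Prss1, Try4, Try5 and Cpb1 did not separate the labels either. In 8 tests (4 genes in 2 classes) of the log2 ratio of counts plus 1, the smallest p was 0.296, for Cpb1 in newborn-type libraries, and all adjusted p were 0.929 (two-sided exact permutation tests). The smallest p these designs allow is 0.000666 for 6 against 8 and 0.0357 for 6 against 2 libraries. Both limits take each library as a unit. Some libraries share a dam or litter number, so the limits do not hold with the litter as the unit. For Prss1 the mean log2 ratio of probe 32233 to probe 71011 was -1.67 ± 0.19 in TCDD-labelled and -1.57 ± 0.27 in control-labelled newborn-type libraries (SD, n = 6 and 8).

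The litter comparison, in which the counts of both pups of a litter were summed, gave a different result. Of the 12 probes, 11 were called, 10 higher and 1 lower in the 4 TCDD litters than in the 3 control litters (edgeR, 18578 probes, of which 1.51% were called higher and 0.318% lower). Try4 probe 30887 had 13602, 14953, 19172 and 22160 CPM in TCDD litters, against 6170, 6629 and 7352 CPM in control litters. Its groups did not overlap, and its log2 fold change was 1.90 ± 0.15 (SE, edgeR, adjusted p = 8.17e-07). Cpa1 had 27051, 28276, 29238 and 31578 CPM in TCDD litters, against 18627, 18789 and 20164 CPM in control litters, with a log2 fold change of 1.12 ± 0.09 (edgeR, adjusted p = 1.05e-06). Prss2 had 1022, 1094, 1139 and 1890 CPM in TCDD litters, against 740, 774 and 802 CPM in control litters, with a log2 fold change of 1.25 ± 0.16 (edgeR, adjusted p = 0.000226). Prss1 probe 32233 had 4261, 4358, 5468 and 6017 CPM in TCDD litters, against 9176, 10715 and 11637 CPM in control litters. It fell by 0.54 on the log2 scale in TCDD litters (edgeR, adjusted p = 0.0462). Try10 had 7897, 8619, 8844 and 10330 CPM in TCDD litters, against 16754, 16932 and 18269 CPM in control litters. Try10 also did not overlap, but it missed the threshold on the TMM scale with a log2 fold change of -0.43 ± 0.11 (edgeR, adjusted p = 0.0657). On CPM the litters did not overlap for 6 of the 12 probes, with TCDD litters above in 4 and below in 2, where 0.753% of 14734 probes with a mean of at least 1 CPM had TCDD litters above and 60.4% below.

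Each TCDD litter held 1 adult-type library and 1 newborn-type library, and no control litter held an adult-type one. For Try4 probe 30887 the adult-type pup had 34643 CPM in TCDD litter 6, 25575 in litter 8, 32178 in litter 10 and 20078 in litter 11, and the newborn-type pup had 6126 CPM in TCDD litter 6, 5365 in litter 8, 7121 in litter 10 and 6682 in litter 11. For Prss1 probe 32233 the adult-type pups of these litters had 119 to 282 CPM and the newborn-type pups 8171 to 12278 CPM. With the libraries that went against their stage label left out, each TCDD litter is its newborn-type pup alone, and then 0 of 12 probes passed in the litters (edgeR), with all 12 estimates between -0.38 and -0.01. The TCDD label of the litters and the library class cannot be told apart in the summed pups. With library totals as the only scaling, 6 of 12 were called (edgeR), Try4 probe 30887, Prss2, Cpa1 and Try5 probe 29086 higher and Prss1 probe 32233 and Try10 lower, and the estimates of the other 6 were 0.08 to 0.12. In that fit 50.7% of all probes were called, a share close to that of the 12.

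**Figure D5:**
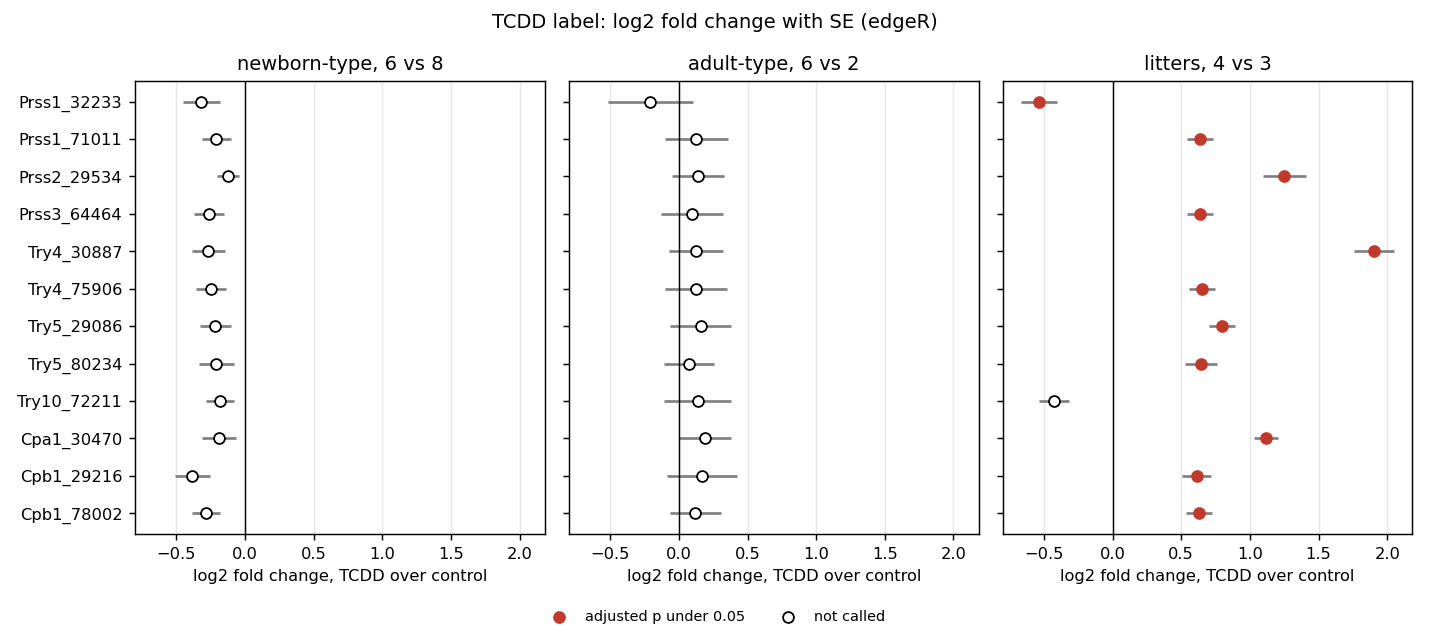
Log2 fold change of libraries labelled TCDD over those labelled control for each probe (edgeR, bars are the SE), among newborn-type libraries (left), adult-type libraries (middle) and summed litters (right), with filled points where the adjusted p was under 0.05. Filled points appear only in the litters panel, for 11 of 12 probes, where each TCDD litter holds 1 adult-type library.

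The comparisons by label alone called none of the 12 probes with edgeR. In TCDD dams against control dams (4 and 4) the log2 fold changes ran from -0.57 to 0.21 with SEs up to 1.39, and 150 of 15594 probes had an unadjusted p below 0.05. In TCDD against control female pups (4 and 3) they ran from -0.62 to 2.09, with 299 of 17513 probes at an unadjusted p below 0.05. In TCDD against control male pups (4 and 3) they ran from -1.80 to 3.47, 10 of the 12 and 2703 of 16176 probes had an unadjusted p below 0.05, and the lowest adjusted p of a member was 0.273. DESeq2 called 11 of the 12 in male pups, 10 of them higher, where it called 3.19% of all probes, and limma-voom called 0. Without TCDD male pup 6, the only newborn-type library of the TCDD male pups, edgeR called all 12, where 41.9% of all probes were called. DESeq2 and limma-voom called 0 of the 12 in dams and female pups, with no adjusted p from DESeq2 for Prss2, Try4 probe 30887 and Cpa1 in female pups. Between male and female pups (7 and 7) estimates ran from -0.34 to 1.31, with 696 of 16198 probes at an unadjusted p below 0.05. Between dams and pups (8 and 14) they ran from -0.30 to 0.68, with 308 of 16760 probes at an unadjusted p below 0.05, and DESeq2 and limma-voom called 0 of the 12 in both. Without the libraries against their stage label all 12 were called between dams and pups (edgeR), 10 higher and 2 lower in dams, where 49.7% of all probes were called.

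The proenzymes that trypsin activates were mostly higher in adult-type libraries on CPM. Of 10 measured, 7 had all adult-type libraries above, 1 had all newborn-type libraries above and 2 overlapped, where 0.427% of probes with a mean of at least 1 CPM had adult-type libraries above. Cela1, a proelastase, had 38307 to 44983 CPM in adult-type and 5414 to 8746 CPM in newborn-type libraries, 6.28-fold higher in adult-type. Cela3b, a proelastase too, was 1.63-fold higher in adult-type, and Cela2a was 1.51-fold higher with overlap. Ctrb1, chymotrypsinogen B, went the other way, at 9036 to 13181 CPM in adult-type and 16887 to 27250 CPM in newborn-type libraries, but it turned on the TMM scale, where all 10 were at least 2-fold higher in adult-type and Ctrb1 had a log2 difference of 1.06. Of 16760 probes, 9.28% were at least 2-fold higher on that scale. In the litters 9 of the 10 were called higher in TCDD litters (edgeR, 1.51% of all probes), and 0 of 10 were called within adult-type and 0 of 9 tested within newborn-type libraries.

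Of 15 measured activators, degraders and inhibitors of trypsin, 9 had all newborn-type libraries above on CPM and 6 overlapped, where 74.4% of probes with a mean of at least 1 CPM had newborn-type libraries above. Spink1, the trypsin inhibitor of acinar cells, had 728 to 942 CPM in adult-type and 1277 to 1808 CPM in newborn-type libraries. Its counts were 0.480 to 0.590% of the trypsinogen counts in adult-type and 0.961 to 1.31% in newborn-type libraries, a ratio of probes whose efficiencies are unknown. Ctsl, cathepsin L, which degrades trypsinogen, was 3.06-fold higher in newborn-type, and Serpina1b, an antitrypsin made by liver, had 0 to 2.73 CPM in adult-type and 51.2 to 163 CPM in newborn-type libraries. Serpinb1a, a serpin of neutrophil proteases, overlapped at 170 to 337 CPM in adult-type and 233 to 472 CPM in newborn-type libraries. On the TMM scale Spink1, Serpinb1a and Ctsl turned to the adult-type side, with log2 differences of 1.04, 1.24 and 0.28, and Serpina1b stayed below 0 at -5.80. Of the 11 genes that passed the low-count filter, 6 were above 0 on that scale and 5 below, where the median of 16760 probes was -0.06. Tmprss15, enteropeptidase, was at or near 0, at 0 to 0.238 CPM in adult-type and 0 to 0.224 CPM in newborn-type libraries, where 3 counts correspond to 0.0859 to 0.267 CPM. The receptors that trypsin can cleave were low, the highest being F2r at 0 to 0.594 CPM in adult-type and 3.47 to 8.80 CPM in newborn-type libraries. Of 15 other metallocarboxypeptidases measured, 9 had newborn-type libraries above on CPM and 6 overlapped. The share with newborn-type libraries above was 74.4% over probes with a mean of at least 1 CPM. On the TMM scale 9 of the 11 that passed the filter stayed below 0. At least 2-fold lower there were 6 of the 11 and 2-fold higher 1, against 20.7% and 9.28% of all probes. Among 9 acinar transcription factors 2 had newborn-type libraries above on CPM (74.4% of probes with a mean of at least 1 CPM) and 7 overlapped, whereas 8 of 9 were above 0 on the TMM scale. At least 2-fold higher on that scale were 3 of the 9 and 2-fold lower 0, against 9.28% and 20.7% of all probes. Ptf1a, the DNA-binding part of PTF1, had 13.0 to 22.7 CPM in adult-type and 16.2 to 31.6 CPM in newborn-type libraries, and Rbpjl, its partner in acinar cells, 4.54 to 42.8 CPM in adult-type and 12.6 to 39.9 CPM in newborn-type libraries.

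Markers of other cell types separated the classes to differing degrees. All 6 mesenchyme markers, all 7 islet markers and all 6 hepatocyte or yolk sac markers had newborn-type libraries above on CPM, as had 4 of 7 duct cell, 5 of 7 mast cell, 3 of 7 intestinal, 2 of 6 immune and 2 of 5 erythroid markers. Over probes with a mean of at least 1 CPM that share was 74.4%, and the shares of the duct, mast cell, intestinal, immune and erythroid markers were not above it. Their summed levels were 41.2 to 99.1 CPM in adult-type and 1452 to 2331 CPM in newborn-type libraries for mesenchyme, 104 to 370 and 1188 to 2372 CPM for islet cells, and 3.20 to 16.7 and 376 to 1132 CPM for hepatocytes or yolk sac. For duct cells the sums were 33.3 to 60.3 CPM in adult-type and 382 to 719 CPM in newborn-type libraries, for mast cells 0.470 to 3.18 and 34.97 to 74.1 CPM, and for intestinal epithelium 0.313 to 1.77 and 34.4 to 698 CPM. For immune cells they were 3.65 to 58.9 CPM in adult-type and 44.8 to 80.9 CPM in newborn-type libraries, and for erythroid cells 1.17 to 14.4 and 40.8 to 80.3 CPM. On the TMM scale the markers of mesenchyme, islet cells and hepatocytes or yolk sac all stayed below 0, while 2 of 6 immune and 1 of 7 duct cell markers lay above it. The median of 16760 probes on that scale was -0.06. The part of these cell types in the class differences of the 12 probes was not tested.

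Over the 14 newborn-type libraries, and with the 12 member probes left out of the search, probes of other genes whose log2 CPM tracked a member most closely differed between members. For Try4 probe 30887 they were led by Gm2663 (Pearson's r = 0.84) and 1810009J06Rik (r = 0.82), neighbours in the locus, among 6727 probes with a mean of at least 10 CPM. The coding sequences of Gm2663 and 1810009J06Rik were 99.5% identical, so their probes may not read separate genes. Between the classes both went against this Try4 probe, with TMM log2 differences of -5.83 and -5.05 against 4.05. For Cpb1 probe 29216 they were led by 2 probes of Reg1, a secreted acinar protein (r = 0.81 and 0.80). Cpa1 was tracked most closely by the proelastase Cela2a (r = 0.74), and Prss2 by Ociad1, Tceal9 and Copb1 (r = 0.93 each). For Prss1 probe 71011 the best outside the 8 genes was Cep44 at r = 0.51, against r = 0.94 with the member Try4 probe 75906. These coefficients describe 14 points that share library totals, and no test was made.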

How the data were processed

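TempO-Seq libraries of pancreas RNA from 22 animals were sequenced on an Illumina NextSeq500, per the labels' protocols. The submitters' processing notes name bcl2fastq 2.17.1.14. The aligner and the genome build behind the counts: not given in the sources used here. The authors deposited 1 table of raw counts, whole numbers without normalization, per probe and library. Counts are of reads, with no molecular identifiers mentioned in the labels, and floors of 3 counts cover counting error only.

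Libraries were classed by summed Afp and Pnlip counts and grouped by label for chemical, stage and sex. The members, lists and tests were chosen with earlier results of these data known. CPM (counts-per-million) is a share of the library total, with the SD beside it. Fits used edgeR 4.0.16 in R 4.3.3 (filterByExpr, TMM, glmQLFit, glmQLFTest, Benjamini-Hochberg over all probes, threshold 0.05) on the libraries of each comparison, and all 12 member probes passed the filter in every edgeR fit. DESeq2 1.42.0 and limma-voom (limma 3.58.1) were alternatives, and in female pups DESeq2 gave no adjusted p for 3 of the 12. The fit was checked on simulated counts. Ratios of probes were tested with exact permutation tests in scipy 1.17.1. Genes of lists are represented by their most abundant probe, with values for up to 4 per list by mean CPM, and likeness is Pearson's r of log2(CPM + 1). Pseudocounts were 1. Libraries of 1 group always differed by more than sampling noise (chi-square of at least 6.27 per degree of freedom). Replicates are separate animals by label, and the label number ties a dam to its litter, which the replicate block uses. Coding sequences come from GENCODE M21 and promoters from RefSeq.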

Additional observations from a re-analysis of the deposited data

Results flagged for a closer look

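Single libraries stood apart from the rest of their group in 8 of 96 groups of values of the 12 probes. This was judged by the gap to the nearest library relative to the range of the group. The chance rate of about 1 in 20 for this rule cannot be set against that count. Some labelled groups hold a single library of the other class, groups share libraries, and the probes are not independent of each other. By labelled group, TCDD female pup 6 was far above the other 3 TCDD female pups for Prss2, at 2649 CPM against 687 to 800 CPM, for Try4 probe 30887, at 34643 CPM against 5365 to 7121 CPM, and for Cpa1, at 41025 CPM against 18511 to 20525 CPM. It is the only adult-type library of that group. TCDD male pup 6, the only newborn-type library of the TCDD male pups, was above the other 3 for Prss1 probe 32233, at 12278 CPM against 119 to 282 CPM, and for Try10, at 16033 CPM against 1556 to 2290 CPM. TCDD female pup 8 was below the other 3 TCDD female pups for Prss1 probe 71011, at 29862 CPM against 32611 to 33060 CPM.

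Within the 6 adult-type libraries labelled TCDD, TCDD female pup 6 also had the highest Prss2 value, 2649 CPM against 1229 to 1718 CPM, and its litter, TCDD litter 6, stood above the other 3 TCDD litters for Prss2, at 1890 CPM against 1022 to 1139 CPM.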

How the results depend on the processing

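Among newborn-type and among adult-type libraries, 0 of 12 member probes were called for the TCDD label under every alternative run, including the replicate block with the litter as a random effect (0 called). The replicate block with the litter as a fixed term also left 0 called between male and female pups and between dams and pups. In the litters, 11 probes were called, and 9 to 12 when a litter was left out (0.731 to 1.99% of all probes). There 6 were called with library totals as the only scaling (9423 of 18578 probes called over all) and 0 without the libraries against their stage label. In male pups 0 were called, but 11 with DESeq2 (3.19% of all probes) and 0 to 12 when a library was left out, the 12 without TCDD male pup 6 (41.9% of all probes). Between dams and pups 0 were called, but 12 without the libraries against their stage label (49.7% of all probes). All 12 probes were at least 2-fold apart between the classes on the TMM scale, 4 as a ratio of mean CPM and 7 as CPM without the 20 most abundant probes in the total. Try5 probe 80234 turned from 1.84 to -0.022 as a ratio of mean CPM. The changes with the scale follow from its construction, since CPM moved the 12 class differences by -1.91 to -1.87 together. Other causes were not tested. Left out after seeing the data, control dam 4, the deepest library, moved them by -0.02 to 0.07 and TCDD female pup 6 by -0.05 to 0.08. No pair of probes of 1 gene was called at a pseudocount of 0.5, 1 or 5. Every member probe had at least 2274 counts in each library. Which trypsinogens a probe reads is not known, 8 libraries went against their stage label and 2 adult-type libraries were labelled control.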
